A study of Mus musculus with 18 samples.

Results

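TCell1 is a cluster of T lineage cells found in the bone marrow of embryonic day 16.5 (E16.5) C57B6/J mouse embryos. Its members were all cells to which the authors' cell table gives the code TCell1 in the second of 2 E16.5 libraries of hematopoietic progenitors (HPs). There were 539 members among the 4752 cells of that library and among the 56201 cells of the whole series. The series profiled bone marrow of fetal (E16.5 and E18.5), newborn (P0) and adult mice cell by cell in 9 mRNA libraries, 5 of them from HPs and the others from stroma. Counts of surface antibodies read by sequencing (CITE-seq) were deposited for the same cells under 29 antibody names. HPs were sorted by flow cytometry as CD45+Lineage-c-Kit+ cells, each library came from a pool of animals, and the experiment was not repeated. The lineage antibodies of the sort included CD4 and CD8, so the levels of these antigens and of c-Kit can be set by the gate. The labels give no treatment and no engineered allele, and all gene comparisons below are among cells of the second E16.5 library.

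T cells develop by rearranging the genes of their antigen receptor. The recombinase made of RAG1 and RAG2 cuts the receptor loci, and the ends are joined by the non-homologous end joining machinery. A rearranged beta chain is first tested together with an invariant partner, the pre-T alpha chain encoded by Ptcra, and the CD3 chains that carry the signal. This takes place in thymocytes that lack CD4 and CD8, express the interleukin 2 receptor alpha chain (CD25, Il2ra), have lost CD44 and c-Kit, and depend on Notch signals. The alpha chain gene is rearranged later, in cells that carry both CD4 and CD8. In postnatal mice these steps are known mainly from the thymus.

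Values below are unique molecular identifiers (UMIs) summed over the cells of a cluster and divided by that cluster's total and scaled to CPM, the usual unit for such sums. The 95% intervals in brackets are exact Poisson or binomial intervals and cover counting error only. The cluster was made from the same genes and came from 1 library, so no test was made, and a gene is called 2-fold higher or lower by its ratio alone, with at least 50 UMIs in the group where it was higher. TCell1 held 10794836 UMIs, with a median of 18052 UMIs and 4031 genes per cell, against medians of 19011 UMIs and 4039 genes in the other 4213 cells of the library. The mitochondrial share of UMIs had a median of 4.7% in members and 3.8% in the other cells.

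The cluster and its code were made from these same transcripts, so the genes below describe the cluster and do not test its name. Of the 3 marker genes given for the cluster, Rag1 was at 335 CPM [324 to 346] against 54.8 CPM in the other cells of the library. Chrna9, which encodes a nicotinic acetylcholine receptor subunit, was at 16.8 CPM [14.4 to 19.4] against 2.06 CPM, from 181 UMIs in the cluster. Slc5a9, a sodium-coupled sugar transporter gene, was at 25.8 CPM [22.9 to 29.1] against 3.28 CPM. These 3 genes were not particular to the cluster. Rag1 was at 315 CPM in the cluster TCell4 and at 101 CPM in the B lineage cluster Bcell1, and Chrna9 and Slc5a9 were also read in TCell4 (9.06 and 21.7 CPM) and TCell6 (11.2 and 11.8 CPM). Among the 10 genes with the largest ratios at 100 CPM or more, 4 were on the recombination and receptor chain lists (Rag1, Rag2, Ptcra and Cd3d). Epcam, on the thymic epithelium list, was also among them.

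Members were seen in 1 library only. The first E16.5 HP library held 0 members among 560 cells, which allows a share of up to 0.536%, whereas the second held 11.3% [10.5 to 12.3]. At the share of the second library, 63.5 of the 560 cells would have been members. That library gave 2 UMIs of Ptcra and 10 of Cd3e among 13974733 UMIs, against 13493 and 15826 among 95833532 UMIs in the second. Rag2 was at 4.22 CPM in the first and 33.6 CPM in the second, and Epcam at 3.65 and 34.2 CPM. Rag1 gave 133 UMIs in the first library, or 9.52 CPM [7.97 to 11.3], near the 10.5 to 11.5 CPM of the E18.5, P0 and adult HP libraries. No cell of the E18.5, P0 or adult HP libraries or of the stromal libraries was given the code, and the members shared 0 to 3 cell barcodes with any other library. Of the other T codes, the first E16.5 library held 13 TCell5 cells, 4 TCell3 cells and 1 TCell2 cell, with no UMI of Rag1 among them. TCell5 was also met at E18.5 (65 cells) and P0 (68 cells), and there Rag1 gave 0 and 4 UMIs and Slc5a9 gave 0 in both. The labels do not say whether the E16.5 libraries came from the same or from separate pools of embryos, so a difference between pools and one between libraries cannot be told apart.

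Genes of receptor recombination were among those higher in the cluster. Over all genes, 4.46% of 11330 compared were 2-fold higher and 16.3% were 2-fold lower in TCell1 than in the other cells of the library, with more UMIs in the larger pool of other cells. Of 11 recombination genes compared, 4 were higher and none lower, with a median log2 ratio of 0.78 against −0.03 over all genes. Rag1 was 6.11-fold higher [5.85 to 6.39]. Rag2, its partner in the recombinase, was 4.31-fold higher [4.01 to 4.63], at 106 CPM. Lig4, the DNA ligase that seals the joints, was 3.72-fold higher [3.21 to 4.30], and Xrcc6, which encodes the end-binding protein Ku70, was 2.84-fold higher [2.72 to 2.96]. The other joining genes, among them Xrcc5 (Ku80), Prkdc, Dclre1c (Artemis) and Nhej1, lay between 1.16- and 1.75-fold. Dntt, whose product adds untemplated bases at the joints, gave 5 UMIs in the whole cluster (0.463 CPM [0.150 to 1.08]).

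Rag1 and Rag2 were spread over the members rather than held by a few. A member carried 0 to 32 UMIs of Rag1 with a median of 6, and 29 of 539 members had none. Rag2 ranged from 0 to 12 UMIs with a median of 2, and 129 members had none. Of the members, 73.5% [69.5 to 77.2] carried both transcripts, beside 72.0% from the product of their shares.

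**Figure D1:**
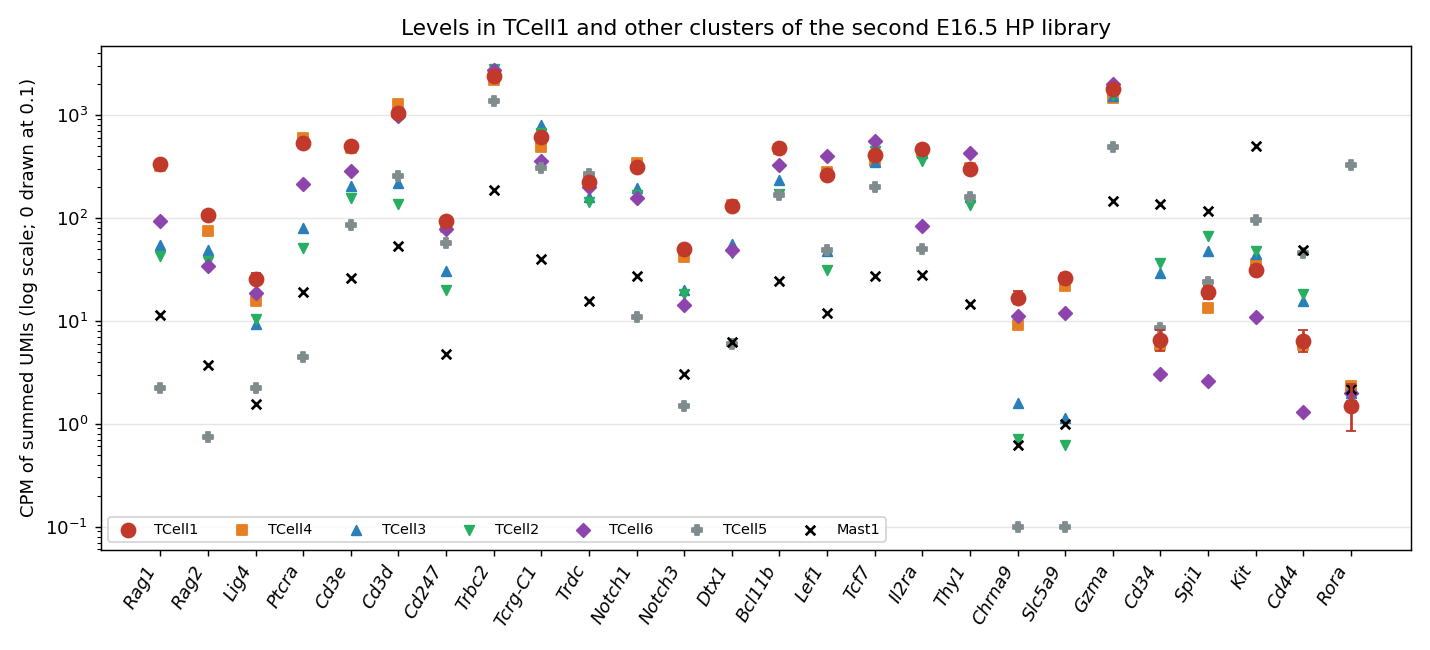
CPM of summed UMIs (log axis) of 26 genes in TCell1 (large red circles with 95% Poisson intervals), the 5 other T clusters and the largest mast cell cluster, Mast1, of the second E16.5 HP library. A value of 0 is drawn at 0.1. TCell1 and TCell4 lie above TCell2 and TCell3 for Rag1, Ptcra, Cd3d, Dtx1, Lef1, Chrna9 and Slc5a9, and below them for Cd34 (6.48 CPM in TCell1), Spi1 (18.9 CPM) and Cd44 (6.39 CPM).

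Of 12 genes of the pre-T cell receptor, T cell receptor and CD3 chains compared, 9 were higher and 1 was lower, with a median log2 ratio of 1.31. Ptcra stood at 526 CPM [512 to 540] against 91.9 CPM, or 5.72-fold [5.53 to 5.92], with 0 to 45 UMIs per member and a median of 9. The CD3 genes followed, at 4.05-fold for Cd3e, 4.25-fold for Cd3d, 3.01-fold for Cd3g and 4.03-fold for Cd247 (the zeta chain). Cd3g was read in 537 of 539 members, since 2 had no UMI. The beta chain constant genes Trbc1 (1131 CPM) and Trbc2 (2399 CPM) were 1.86- and 1.83-fold higher, under the 2-fold limit, because the other T clusters carried as much: TCell2 had 1109 and 2792 CPM. Against the cells outside the T clusters they were 9.88- and 8.87-fold higher, and there all 11 chain genes compared were higher (9.84% of 11065 genes compared were 2-fold higher and 19.6% lower in that comparison). Trbc1 and Trbc2 are near-identical copies, so their split is uncertain.

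Transcripts of the alpha chain constant gene were nearly absent, which was not particular to the cluster. This gene, Trac, gave 4 UMIs in 3 of 539 members, or 0.371 CPM [0.101 to 0.949], against 1.42 CPM in the other cells, 17.1 CPM in TCell5 and 9.62 CPM in TCell6. Trac was nearly absent from the other T clusters as well, at 0.0884 CPM in TCell2, 0.227 CPM in TCell3 and 0 UMIs in TCell4. Its log2 ratio of −1.94 became −0.64 against the cells outside the T clusters, where it was not called. Without the members with most UMIs it was −3.62. The sort on CD4 and CD8 bears on which cells could carry Trac. The gamma and delta constant genes were at least 2-fold higher than in the other cells, which include those outside the T clusters. Tcrg-C1 was at 609 CPM and 2.02-fold higher, Tcrg-C2 at 478 CPM and 2.49-fold higher, Tcrg-C4 at 55.1 CPM and 2.22-fold higher, and Trdc at 223 CPM and 2.47-fold higher. None of these genes was 2-fold higher than in TCell4, and against TCell3 only Tcrg-C4 was. The gamma constant genes resemble each other closely, so reads could have been split between them. The count of members with Ptcra and Tcrg-C1 together was 494 of 539, 91.7% [89.0 to 93.8] beside 91.5% from the product, so most members carried transcripts of both chains.

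Variable segments, which are transcribed with the constant gene after rearrangement but also in unrearranged form, were listed for 13 genes, of which 10 had a UMI in the cluster. Trgv2 was the most frequent, with 181 UMIs in 127 of 539 members, 23.6% [20.04 to 27.4]. Its share was 1.04% in Mast1, and its level was 16.8 CPM in TCell1, 25.8 CPM in TCell4 and 24.1 CPM in TCell6, but 0.0884 CPM in TCell2 and 2.34 CPM in TCell3. Tcrg-V4 was met in 30 members (5.57%), Trbv13-2 in 28 (5.19%) and Trav17 in 17 (3.15%). Trdv4 was at 0.556 CPM, below TCell5 (11.9 CPM) and TCell6 (6.56 CPM). The libraries were read from the 3' end of transcripts, and whether these UMIs came from rearranged genes was not tested. The shares are therefore not a measure of segment use.

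The sequences just before the start sites of 4 of these genes are shown because they are the recombinase gene, the pre-T alpha gene, a CD3 gene and a marker of the cluster, and because E-boxes, the letters CANNTG read by E proteins such as those of Tcf3 and Tcf12, are known features of lymphoid promoters. Each is 250 bases of RefSeq promoter sequence, build GRCm38.p6, 5′ to 3′ on the gene's own strand and ending at the base before the start, with E-boxes in capitals. Rag1 lies at chr2:101649533-101649782 on the minus strand, Ptcra at chr17:46763713-46763962 on the minus strand, Cd3d at chr9:44981536-44981785 on the plus strand and Chrna9 at chr5:65966874-65967123 on the plus strand.
Rag1: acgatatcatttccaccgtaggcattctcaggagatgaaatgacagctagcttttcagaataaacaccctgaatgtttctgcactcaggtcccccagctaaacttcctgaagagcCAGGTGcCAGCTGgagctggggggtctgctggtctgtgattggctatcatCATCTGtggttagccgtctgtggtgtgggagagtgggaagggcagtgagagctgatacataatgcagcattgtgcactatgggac
Ptcra: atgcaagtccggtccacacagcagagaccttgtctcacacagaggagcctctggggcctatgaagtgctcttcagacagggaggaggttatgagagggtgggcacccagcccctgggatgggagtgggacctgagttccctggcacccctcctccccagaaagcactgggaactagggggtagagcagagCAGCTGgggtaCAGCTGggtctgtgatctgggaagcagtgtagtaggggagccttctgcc
Cd3d: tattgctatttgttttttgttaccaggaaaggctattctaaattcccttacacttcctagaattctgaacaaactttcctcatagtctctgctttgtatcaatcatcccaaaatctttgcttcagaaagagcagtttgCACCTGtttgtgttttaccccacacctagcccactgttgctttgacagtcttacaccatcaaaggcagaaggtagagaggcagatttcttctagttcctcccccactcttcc
Chrna9: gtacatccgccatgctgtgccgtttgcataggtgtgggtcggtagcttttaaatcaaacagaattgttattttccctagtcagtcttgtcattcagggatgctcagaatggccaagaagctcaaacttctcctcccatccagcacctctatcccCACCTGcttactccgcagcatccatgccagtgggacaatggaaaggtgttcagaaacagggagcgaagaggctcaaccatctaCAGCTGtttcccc

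Rag1 held 3 E-boxes that begin 135, 128 and 85 bases before the start, and the letters TGTGGT, the core read by RUNX factors, at 81 and 67 bases. The E-box at 85 bases and the first of these cores share letters. Ptcra held a pair of E-boxes with the same letters, CAGCTG, at 60 and 49 bases. Cd3d held 1 E-box at 112 bases and CTTTGA, a TCF and LEF core, at 73 bases with its reverse complement TCAAAG at 54 bases. Chrna9 held E-boxes at 96 and 13 bases. Across the 15 genes with the largest ratios and the 3 markers, which made 17 genes, 16 matched the table with 19 windows. Of these windows 13 (68.4%) held CANNTG, against 66.2% of all 32851 windows, and CAGCTG was in 3 (15.8% against 13.0%). The shares of CACCTG (26.3% against 17.2%), TGTGGT (10.5% against 14.0%), CTTTGA (21.1% against 13.8%), AGATAA (5.26% against 9.99%) and GGAA (89.5% against 93.4%), each searched on both strands, rest on 1 to 17 windows. CAGCTG and CACCTG are forms of CANNTG. A match is a run of letters and says nothing of whether a factor was bound.

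Signalling genes downstream of the receptor were partly higher. Of 17 compared, 4 were higher and none lower: Lck, the kinase that starts the signal, at 480 CPM and 3.00-fold [2.91 to 3.098], the adaptor gene Lat at 435 CPM and 2.24-fold, Themis at 114 CPM and 3.70-fold, and the adaptor gene Grap2 at 2.11-fold. Lck was read in all 539 members. Zap70, the kinase that binds the phosphorylated CD3 chains, was at 15.6 CPM [13.3 to 18.1], 1.94-fold higher than in the other cells, but lower than in TCell5 (49.2 CPM) and TCell6 (55.1 CPM). The co-receptors and costimulators Cd2, Cd5, Cd6 and Cd28 were between 0.926 and 12.5 CPM.

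Of 6 Notch genes compared, 3 were higher and 1 was lower. Notch1 was at 311 CPM and 2.90-fold higher [2.78 to 3.01], Notch3 at 49.5 CPM and 4.31-fold higher, and Dtx1, a direct target in thymocytes, at 130 CPM and 4.04-fold higher. Hes1, another target, was at 166 CPM and 1.57-fold higher, and Nrarp at 32.6 CPM was below TCell2 (49.0 CPM) and TCell3 (41.8 CPM). Notch2 was lower, at 5.10 against 15.4 CPM. Dll4, the Notch ligand of the thymus, had no UMI in the cluster or in any of the 4752 cells, and the thymic epithelial genes Psmb11 and Prss16 gave 1 and 6 UMIs in the cluster. Tbata, also on that list, gave 10 UMIs in the cluster and 5 in the other cells (0.926 against 0.0588 CPM), under the minimum of 50. Ccl25, a chemokine gene on that list, gave 165 UMIs, or 15.3 CPM [13.0 to 17.8], and was also at 15.3 CPM in the other cells. Epcam, also on the thymic epithelium list, was at 117 CPM and 4.93-fold higher [4.59 to 5.29], and was the only one higher of the 3 genes of the list that were compared.

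Among 25 T lineage transcription factors, 6 were higher and 7 were lower, a median log2 ratio of 0.24. The higher ones were Bcl11b, which commits cells to the T lineage, at 480 CPM and 3.60-fold [3.48 to 3.72], Lef1 at 3.63-fold, Tcf7 at 2.04-fold, Tcf12 at 2.36-fold, Ets1 at 2.56-fold and Runx1 at 2.41-fold. The lower ones included Id2 (78.8 against 300.1 CPM) and Id3 (5.74 against 29.4 CPM), which encode inhibitors of E proteins, the activation genes Egr1 and Egr3, and Ikzf3 and Zbtb7b, each at 0.834 CPM or less. Gata3, at 65.7 CPM, was 1.37-fold higher than in the other cells but below TCell5 (277 CPM).

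Most genes of the early progenitor list were lower than in the other cells, which include the mast cell clusters. Of 13, 11 were lower and none was higher, with a median log2 ratio of −2.61. The list, which holds Kit and Gata2, summed to 142 CPM in TCell1, 1386 CPM in Mast1 and 1470 CPM in the progenitor cluster HSPC1. It summed to 334 CPM in TCell3 and 134 CPM in TCell4. Against TCell4, 1 of 9 genes compared was higher and 0 were lower. Flt3 gave 2 UMIs and Hoxa9 4 UMIs in the cluster. Spi1, which encodes the myeloid factor PU.1, was at 18.9 CPM against 95.6 CPM, and Cd34 at 6.48 against 70.2 CPM. Bcl11a (21.95 against 42.9 CPM) and Erg (6.21 against 6.14 CPM) did not pass the 2-fold limit.

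The surface genes that stage thymocytes gave 4 higher and 2 lower of 10 compared. Il2ra was at 462 CPM [450 to 475], 2.75-fold higher, with a median of 8 UMIs per member. This was the highest of the 17 clusters of the library, but TCell4 (437 CPM) and TCell3 (425 CPM) were close. Thy1 was at 294 CPM and 2.79-fold higher, and Cd27 at 136 CPM and 2.20-fold higher. Cd44 was at 6.39 CPM against 32.5 CPM, and 485 of 539 members had no UMI of it. Kit was at 31.4 CPM against 207 CPM, 16th of 17 clusters, although the cells were sorted on c-Kit, and 355 members had no UMI of it. Its log2 ratio of −2.72 became −3.35 without the members with most mast cell UMIs. Kit is itself on the mast cell list by which these members were dropped, so the fall is not independent of that choice. Cd4 gave 3 UMIs and Cd8a 4 UMIs in the whole cluster, and the gate bears on each of them. Cd8b1, the other CD8 chain, gave 50 UMIs, was met in 29 members and was 5.12-fold higher [3.51 to 7.40] than in the other cells. It was at 4.63 CPM in TCell1, 0.768 CPM in TCell4, 0.0756 CPM in TCell3 and 12.5 CPM in TCell6. Its log2 ratio to the other cells was 2.35, and 3.60 with the mean of per-cell CPM.

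Of 15 genes of cytokine receptors, homing and egress, 5 were lower. Il7r, the receptor on which early thymocytes depend, was at 110 CPM and 1.61-fold higher. The lower genes were Itgb7, Klf2, Il4ra, Il2rb and Cxcr3. S1pr1, the receptor for exit from the thymus, was at 2.59 CPM [1.72 to 3.75], and Ccr9, a thymus homing receptor, at 7.97 CPM, against 128 CPM in TCell5.

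Genes of gamma-delta and innate-like T cells were mixed, with 5 higher and 4 lower of 12. The higher ones were the 4 gamma and delta constant genes named above and Blk, a kinase gene, at 6.58 CPM and 2.72-fold. The lower ones were Rora, Icos, Maf and Il18r1. Rora was at 1.48 CPM [0.847 to 2.41] from 16 UMIs, against 326 CPM in TCell5. Zbtb16, which encodes the innate-like factor PLZF, was at 6.30 CPM, at least 2-fold lower than in TCell3 and at least 2-fold higher than in TCell4.

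Gzma, which encodes the killer cell protease granzyme A, was at 1797 CPM, 2.39-fold higher [2.35 to 2.43], with a median of 26 UMIs per member and 1 member without. On the natural killer cell list it was the only higher gene of 4 compared. Klrd1 (4 UMIs) and Gzmb (29 UMIs) were lower, and Nkg7, the remaining gene compared, was within 2-fold. Against the cells outside the T clusters, Nkg7 and Gzma were higher and Klrd1 and Gzmb were lower. The defining genes Ncr1, Klrb1c, Klre1, Eomes and Tbx21 were at 0 in the cluster. They also had too few UMIs in the other cells to be compared, so their absence does not set the cluster apart. Gzma was also at 1546, 1514, 1458 and 1980 CPM in TCell2, TCell3, TCell4 and TCell6, and at 13.6 CPM in Bcell1.

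Of 9 nutrient transporters, 1 was higher (Slc5a9, 7.88-fold [6.65 to 9.33]) and 4 were lower. The lower ones included both chains of the CD98 amino acid transporter, Slc7a5 (11.5 against 44.2 CPM) and Slc3a2 (99.8 against 254 CPM), and the glucose transporter gene Slc2a1 (9.54 against 20.6 CPM). Of 10 apoptosis and survival genes, Bcl2 was 2.04-fold higher [1.90 to 2.19], and Bbc3 and Bcl2a1d were lower.

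The 15 genes with the largest ratios among those at 100 CPM or more included, beside Rag1, Ptcra, Epcam, Rag2, Cd3d, Cd3e and Dtx1, genes not on any T cell list. These were 9130015A21Rik (135 CPM, 6.47-fold), Gm4632 (148 CPM, 6.45-fold), Dgkeos (118 CPM, 5.76-fold), the myosin light chain gene Myl10 (211 CPM, 4.54-fold), the histone deacetylase gene Hdac4 (122 CPM, 4.05-fold), Ccdc18 (193 CPM, 3.77-fold), Pld4 (178 CPM, 3.76-fold) and the aquaporin gene Aqp11 (175 CPM, 3.73-fold). Dgkeos is named as the opposite-strand partner of Dgke (Cell Ranger, run with default settings, counts reads on the sense strand). The 15 genes at the other end were genes of neutrophils (Elane, Prtn3, Mpo, Ctsg, S100a8, S100a9, Camp, BC100530, Stfa1) and genes read at 301 CPM or more in Mast1 (Tpsg1, Il1rl1, Prss34, Gata2, Smpx and Creb3l1), from 0.741 CPM for Elane, against 192 CPM, to 25.1 CPM for Prss34, against 457 CPM.

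Most markers of other cell types were lower, apart from Gzma on the natural killer list (1 of 4 higher, 2 lower) and Epcam on the thymic epithelium list (1 of 3 higher, none lower). All 10 mast cell genes, all 10 neutrophil genes, 9 of 10 macrophage and monocyte genes, all 8 dendritic cell genes compared and 8 of 9 B lineage genes were 2-fold lower. So were 5 of 6 innate lymphoid genes compared, 3 of 4 erythroid, all 4 megakaryocyte, 5 of 6 hematopoietic stem cell and both stromal genes compared, and the 1 endothelial gene compared was within 2-fold. The mast cell list summed to 1875 CPM in TCell1, 461 CPM in TCell2, 2109 CPM in TCell3, 3676 CPM in TCell4 and 90141 CPM in Mast1, and Fcer1a, a defining marker, was at 0 in TCell1. In TCell1 there were 1.91 UMIs of Cma1 per UMI of Cpa3, 0.316 of Tpsb2 per Cma1 and 0.0990 of Hdc per Cma1, near the 2.08, 0.339 and 0.105 of Mast1. The first of these values differed between T clusters, at 0.305 in TCell2, 1.41 in TCell3, 2.00 in TCell4, 1.83 in TCell5 and 2.04 in TCell6. In the other direction, T lineage transcripts were read in Mast1, with Cd3g at 206 CPM and Rag1 at 11.3 CPM. The part of free RNA in these values was not tested.

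To set cells of unequal depth side by side, each cell was thinned to 5000 UMIs, which left 538 members. Rag1 was then read in 76.0% of members [72.2 to 79.6], Ptcra in 83.3% [79.8 to 86.3], Il2ra in 78.8% [75.1 to 82.2], Cd3e in 89.4% and Cd3g in 99.6%. In Mast1, which should lack these genes and whose cells had a median of 13591 UMIs before thinning, the shares were 2.32%, 2.67%, 5.81%, 4.18% and 11.7%. Before thinning, Rag1 was in 94.6% of members, Ptcra in 94.8% and Il2ra in 94.2%. Trac was in 0 of 538 thinned members and in 3 of 539 before thinning. Rag1 and Ptcra were met together in 68.4% of thinned members [64.3 to 72.3] beside 63.3% from the product of their shares, and Il2ra and Ptcra in 65.2% [61.05 to 69.3] beside 65.6%.

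**Figure D2:**
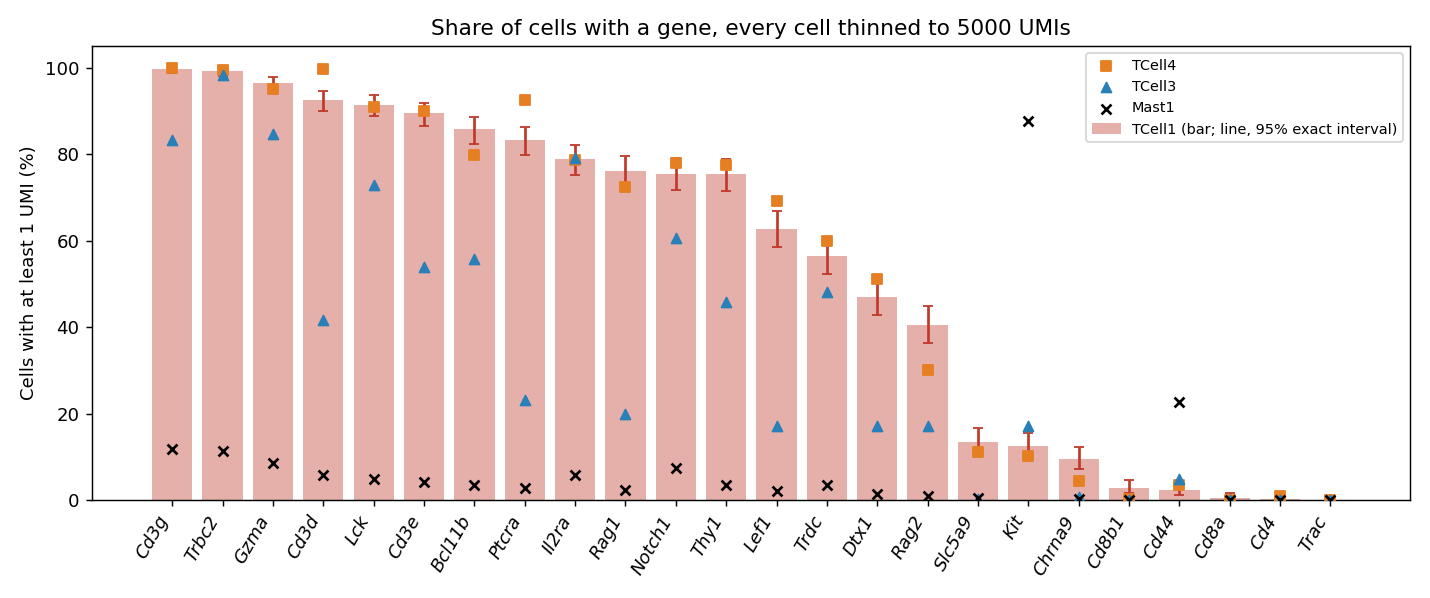
Share of cells with at least 1 UMI of each gene after thinning each cell to 5000 UMIs, for TCell1 (bars with exact 95% binomial intervals), TCell4, TCell3 and Mast1. TCell1 and TCell4 are close for Rag1 (76.0% and 72.3%) and Il2ra (78.8% and 78.7%) and differ for Ptcra (83.3% and 92.6%), TCell3 is far lower for Ptcra (23.1% against 83.3%) and Rag1 (19.96% against 76.0%), and Mast1 is above TCell1 for Kit (87.7%) and Cd44 (22.8%).

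The surface antibodies were not used to make the clusters. CD90.2, the product of Thy1, gave a median of 103 counts per member, with 55 at the 10th and 165 at the 90th percentile, against 3 in the other cells of the library. Counts above a centered log ratio (CLR, the log of an antibody's count relative to a geometric mean over the library's cells) of 1 were found in 98.7% of members [97.3 to 99.5] and 33.6% of the other cells. The order of medians was TCell6 (184), TCell4 (124), TCell1 (103), TCell3 (44), TCell5 (40) and TCell2 (23), with 1 in Mast1. The ranges of TCell1, TCell4 and TCell6 between the 10th and 90th percentiles overlapped.

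Of the 29 antibody names, 16 were read in 10% or more of the library's cells and 2 (CD117 and CD140a) had no count. Among the 16, CD90.2 was the only one with a mean 2-fold higher in members (2.94-fold), and CD16/32 (0.107-fold) and IL33R (0.442-fold) were the only ones 2-fold lower. CD16/32, the Fc gamma receptors, had a median of 0 in members and 28 in Mast1. CD48 had a median of 12 in members and 2 in Mast1, and was above the CLR level in 54.4% of members [50.05 to 58.6]. CD27 had a median of 4 against 0 in Mast1, and 43.8% of members [39.5 to 48.1] were above the level. Both shares depend on the level and scaling: at CLR levels of 0.5 and 1.5 they were 94.99% and 9.65% for CD48 and 86.5% and 8.35% for CD27, and with CLR across each cell's antibodies 97.0% and 60.9%. The antibody to CD117 (c-Kit) gave 0 counts in the library and that to CD44 gave 57, so neither could be set beside its transcript.

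**Figure D3:**
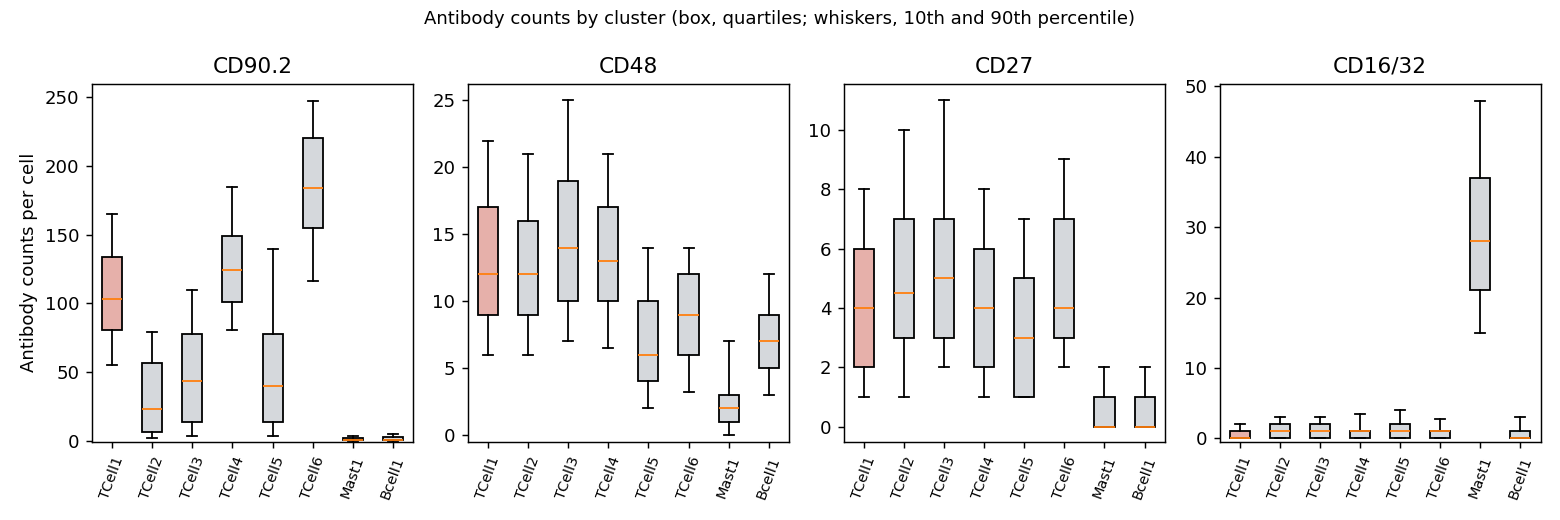
Antibody counts per cell for CD90.2, CD48, CD27 and CD16/32 in the 6 T clusters, Mast1 and Bcell1 (boxes, quartiles with the median; whiskers, 10th and 90th percentiles). TCell1 has a CD90.2 median of 103, above TCell2, TCell3 and TCell5 and below TCell4 and TCell6, and a CD16/32 median of 0.

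Within the cluster, members above the CLR level for some antibodies had more of the antigen's transcript, as CPM of UMIs summed over each group of members. Members above the CLR level for Sca-1 had 2.57-fold [2.10 to 3.15] the Ly6a of the others (65.1 against 25.3 CPM), those above it for CD48 had 1.30-fold [1.16 to 1.46] the Cd48, and those above it for CD93 had 1.62-fold [1.10 to 2.32] the Cd93. For CD115 the ratio was 8.63 [2.47 to 28.4], from 6 and 8 UMIs of Csf1r. For CD27 the ratio was 1.03 [0.932 to 1.15] and for CD43 it was 1.05 [0.837 to 1.31]. The intervals for CD150 (1.57 [0.883 to 2.69]), CD105 (0.434 [0.0878 to 1.31]) and CD41 (0.685 [0.0158 to 4.82]) also held 1. Flt3 (CD135) and Ly6c2 (Ly6C) gave 3 UMIs or fewer in either group.

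The 2 clusters most like TCell1 over genes at 10 CPM or more in either were TCell4 (296 cells, rank correlation 0.970 over 7546 genes) and TCell3 (481 cells, 0.955 over 7594 genes). These correlations are descriptions over genes of clusters from the same library. The comparisons below share the cells of TCell1 and so are given side by side.

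From TCell4, TCell1 differed little in T cell genes. Of 93 genes on the 9 T development lists that could be compared, 4 were 2-fold higher (4.30%) and none was lower at a minimum of 50 UMIs, against 0.847% higher and 1.32% lower of all 8854 genes. The minimum bears on these counts: TCell1 held 10794836 UMIs and TCell4 6510611, so 50 UMIs are a lower CPM in TCell1, and a gene of low level could be called higher where its mirror image could not be called lower. The higher genes were Cd8b1 (4.63 against 0.768 CPM), Ccr9 (7.97 against 2.46 CPM), Erg (6.21 against 2.61 CPM) and Zbtb16 (6.30 against 2.30 CPM), and at these levels Cd8b1, Erg and Zbtb16 would not have reached 50 UMIs in a pool of the size of TCell4. Rag1 was at 1.06-fold [1.01 to 1.12], Rag2 at 1.43-fold [1.28 to 1.59] and Ptcra at 0.878-fold [0.843 to 0.915]. At 100 CPM or more in the higher cluster, the 5 genes with the smallest ratios were histone genes. Hist1h1b was at 190 CPM in TCell1 and 1725 CPM in TCell4 (0.110-fold), and 4 other histone genes, Hist1h1a, Hist1h1e, Hist1h2ae and Hist1h2ap, at 0.114- to 0.160-fold. Fbxo5 and Rrm2, a subunit of ribonucleotide reductase, were at 0.254- and 0.311-fold. Of 22 S phase genes 5 were lower (among them Clspn, Tyms, E2f8 and Rrm2), and of 20 G2/M genes 3 were lower (Aurkb, Top2a and Kif11). The genes at 100 CPM or more with the largest ratios the other way all fell short of 2-fold, from Ifitm1 (1.86-fold), Ltb (1.75-fold) and Ccnd2 (1.70-fold) to the mitotic genes Cenpa, Cdc20, Ccnb2 and Ccnb1 (1.57- to 1.65-fold) and Gimap1 (1.505-fold). The mast cell protease gene Mcpt4 was at 42.7 CPM in TCell1 and 136 CPM in TCell4. Among markers of other cell types, the erythroid gene Hbb-bt was higher, at 29.1 against 8.14 CPM, and genes of several lists were lower: 2 of 8 mast cell genes compared (list sums of 1875 and 3676 CPM), 3 of 6 macrophage and monocyte genes (C1qa, C1qb and C1qc, list sums of 185 and 237 CPM), 1 of 3 dendritic cell genes, 2 of 4 B lineage genes and 1 of 2 innate lymphoid cell genes. Their part in the other differences was not tested.

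From TCell3, TCell1 differed in T cell genes and in markers of other cell types. Of 98 T development genes that could be compared, 24 were higher (24.5%) and 12 lower (12.2%), against 3.20% higher and 2.01% lower of all 9382 genes, with TCell3 the larger pool (13231988 UMIs). Ptcra was 6.56-fold higher [6.14 to 7.01], Rag1 6.16-fold [5.68 to 6.68], Lef1 5.52-fold, Cd3d 4.79-fold, Rag2 2.15-fold and Bcl11b 2.07-fold. Il2ra (1.09-fold), Tcf7 (1.17-fold) and Trbc2 (0.863-fold) were alike within 1.5-fold. Dgkeos (10.2-fold), Sh2d1a, a signalling adaptor gene (7.12-fold), 9130015A21Rik, Pld4 and Gm4632 completed the 8 largest ratios among genes at 100 CPM or more. Below that level, Slc5a9 was at 25.8 against 1.13 CPM and Chrna9 at 16.8 against 1.59 CPM. Of 11 early progenitor genes compared, 7 were lower (Lmo2, Cd34, Mef2c, Lyl1, Hhex, Bcl11a and Spi1). Among genes at 100 CPM or more in TCell3, the 8 with the smallest ratios were the same 5 histone genes (0.197- to 0.254-fold), the beta globin gene Hbb-bt (0.136-fold), Nrgn and Igfbp4. Of markers of other cell types compared, 3 of 3 neutrophil genes (Prtn3, Ctsg and Mpo), 2 of 2 megakaryocyte genes (Pf4 and Itga2b) and 2 of 2 erythroid genes (Car2 and Hbb-bt) were lower, with list sums of 17.5 and 60.8, 4.45 and 24.9, and 32.4 and 227 CPM in TCell1 and TCell3. On the other lists C1qa, Cd79a, Gzmb and, as above, Cd34 were lower, and Mcpt4 (42.7 against 14.5 CPM), Epcam and Icos were higher. Their part in the other differences was not tested.

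**Figure D4:**
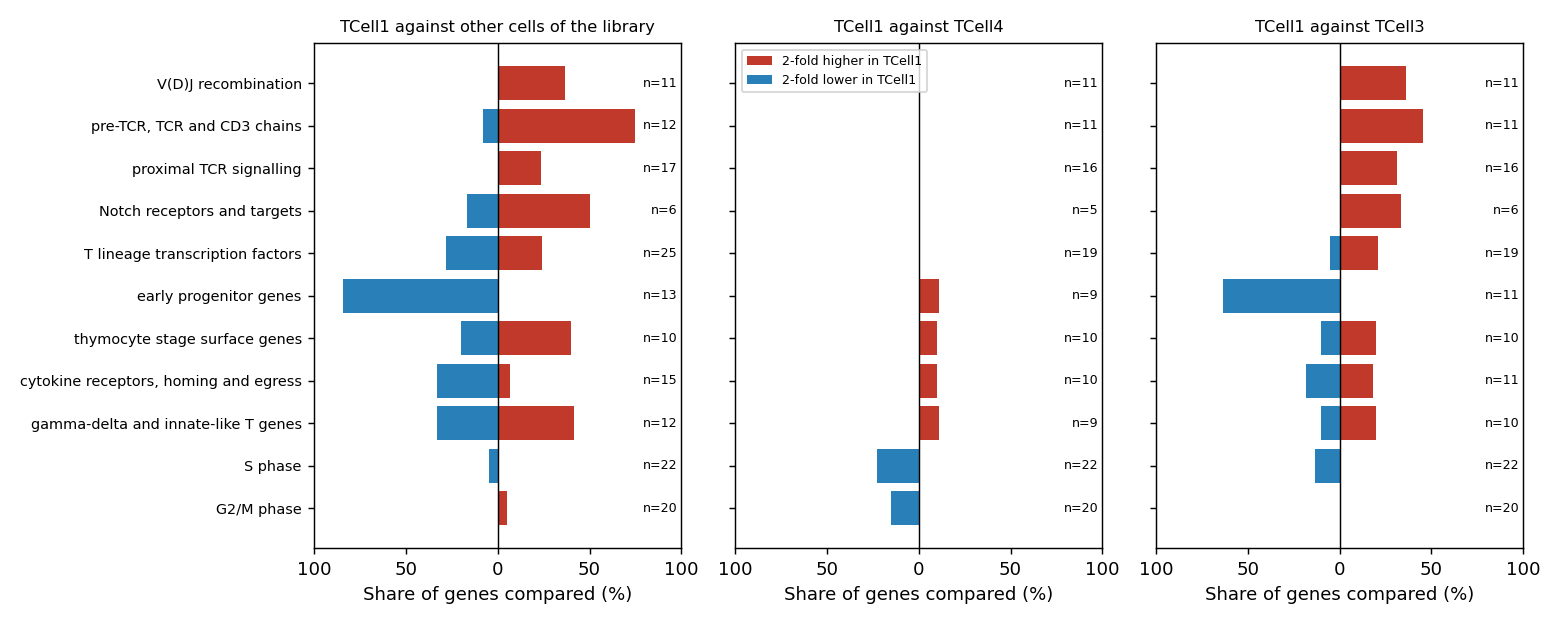
Share of the genes compared on each list (n beside each bar) that were 2-fold higher (red, right) or lower (blue, left) in TCell1 than in the other cells of the library, TCell4 and TCell3. Receptor chain genes were higher against the library (9 of 12) and TCell3 (5 of 11) but not TCell4 (0 of 11), and early progenitor genes lower against the library (11 of 13) and TCell3 (7 of 11).

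Cell cycle genes were spread widely among members. Against the other cells of the library 1 of 22 S phase genes was lower (E2f8) and 1 of 20 G2/M genes was higher (Ube2c). The 22 S phase genes took a median of 0.24% of UMIs at equal depth in TCell1 (quartiles 0.14% and 0.36%), against 0.46% in TCell4 and 0.38% in TCell3. The 20 G2/M genes took 0.06% (quartiles 0.02% and 0.56%), against 0.40% in TCell4 and 0.26% in TCell3, so at least 1 in 4 members were at or above 0.56%. The authors had removed cell cycle scores by regression before clustering. Mki67, a proliferation gene, was read in 36.4% of thinned members [32.4 to 40.7] and 78.0% of TCell4.

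Members were then put in order by the summed share of these 42 genes and divided into 3 equal parts, a division chosen after the values were seen. The parts had medians of 0.22%, 0.46% and 0.94% of UMIs and held 180, 179 and 179 cells with median depths of 13628, 18165 and 24579 UMIs. Rag1 was lower in the part with most cell cycle transcripts, at 437, 319 and 289 CPM in order (0.661-fold between the ends [0.611 to 0.716]). Rag2 was not, at 92.2, 98.9 and 118 CPM (1.28-fold [1.10 to 1.497]). Ptcra (0.953-fold [0.894 to 1.02]), Cd3e (0.968-fold) and Notch1 (0.959-fold) were near 1, and Ptcra crossed it without the 10% of members with most UMIs (log2 ratio from −0.07 to 0.15). Il2ra (1.28-fold), Lef1 (1.32-fold) and Tcrg-C1 (1.54-fold [1.45 to 1.65]) were higher. Chrna9 was at 27.4, 16.6 and 10.8 CPM (0.395-fold [0.270 to 0.574]) and Gzma at 2411, 1848 and 1404 CPM (0.582-fold). Without the same members the log2 ratio of Rag1 was −0.43 in place of −0.60. In TCell4 and TCell3 divided in the same way, Rag1 was instead higher in the last part, 1.62-fold [1.46 to 1.80] and 1.51-fold [1.25 to 1.83]. The first parts of these clusters began higher, at medians of 0.64% and 0.48%, so the ranges differ between clusters. Over all 6636 genes compared in TCell1, 293 were 2-fold higher and 71 2-fold lower in the last part than in the first, and 256 had a lower ratio than Rag1. Apart from Chrna9, the ratios named here for TCell1 did not reach 2-fold.

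**Figure D5:**
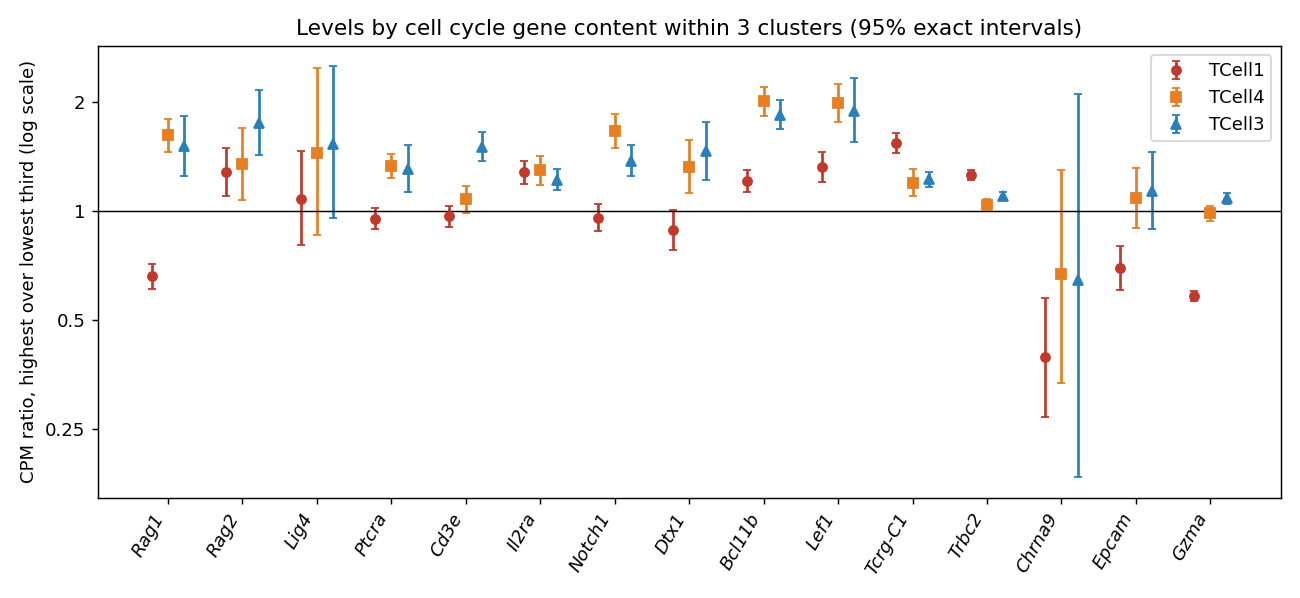
CPM ratio between the cells with most and fewest S and G2/M transcripts (log axis, exact 95% intervals from counts) for 15 genes within TCell1, TCell4 and TCell3. In TCell1 Rag1 (0.661), Chrna9 (0.395), Epcam (0.696) and Gzma (0.582) lie under 1, while Rag1 lies above 1 in TCell4 (1.62) and TCell3 (1.51).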

How the data were processed

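The authors aligned Chromium 3' v3.1 reads to mm10 with Cell Ranger (3.1.0 per the labels), deposited raw UMI counts per gene and antibody counts per cell, and filtered genes by the number of cells with them and cells by UMIs, genes and mitochondrial share. The cells with the most genes or UMIs in each library were removed as putative doublets, and no doublet caller was run here. They clustered with Seurat (3.1.5) after regressing out depth, mitochondrial share and cell cycle scores. The lowest total of a deposited cell was 358 UMIs. Cluster codes come from the deposited cell table, of which 9 columns were not used.

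UMI counts were summed per cluster (Python 3.11.15, numpy 2.4.6, scipy 1.17.1, pandas 2.3.3) and compared as ratios of CPM. Genes named are the cluster's markers, those of 27 lists, the 15 largest ratios each way at 100 CPM or more (8 against each like cluster, without mitochondrial, ribosomal protein genes and Gm42418) and antibody targets. The members and lists were chosen with earlier results of these data known. TMM factors came from edgeR 4.0.16. A count of 0 was set to 3 counts in a ratio. No p-value was computed: of the 2 E16.5 HP libraries that the deposited labels number, 1 held members. Some genes of the lists are counted in them but not reported here by name.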

Additional observations from a re-analysis of the deposited data

Results flagged for a closer look

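The data of the stromal libraries, which enter no comparison above, held Ptcra. The gene gave 193 UMIs in the E16.5 stroma library, 242 in E18.5 stroma, 395 in P0 stroma and 123 in adult stroma (1.65, 2.15, 2.03 and 1.34 CPM), above the 3 counts that a count of 0 allows. Cd3e gave 0, 1, 3 and 1 UMIs and Rag1 1, 1, 3 and 2 UMIs in the same libraries. The UMIs lay in 119, 144, 250 and 72 cells, with at most 10 to 19 in any cell. The E18.5, P0 and adult HP libraries were in the same range (1.56, 2.06 and 1.42 CPM), and the first E16.5 HP library gave 2 UMIs (0.143 CPM [0.0173 to 0.517]). The source of these UMIs was not tested.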

How the results depend on the processing

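No paired analysis was possible because the result comes from no test and from 1 library. The share of members was 0% without E16.5 HP replicate 2 and 10.1% with both E16.5 libraries pooled. No gene comparison could be run in the first library, which held no member.

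Of 505 higher and 1851 lower genes, the counts were 1089 higher with only cells outside the T clusters as comparison, 4364 higher without a minimum of counts, 276 higher and 1218 lower at a minimum of 200, and 89 higher and 1010 lower at 4-fold, each by its construction. T development genes higher went from 32 to 53 outside the T clusters, and those lower than in TCell4 from 0 to 1 without the tenth of members with most mast cell UMIs. No called ratio changed direction among 324 recomputed ratios of single genes between groups. Those recomputed with another minimum of counts or at 4-fold repeat the main ratio by construction, and could neither move nor reverse. With the values by cell cycle part added, 95 moved beyond their counting interval and 239 did not, and the 239 include these repeats. Against cells outside the T clusters the higher ratios grew (log2 of Rag1 from 2.61 to 4.01, Il2ra from 1.46 to 4.03), while Trac went from −1.94 to −0.64 and was no longer called. With the mean of per-cell CPM Cd8b1 went from 2.35 to 3.60, Chrna9 from 3.03 to 3.74 and Cd34 from −3.44 to −4.12, and without the members with most UMIs Cd34 was at −4.24 and Trac at −3.62. Without the members with most mast cell UMIs Kit went from −2.72 to −3.35, from −0.17 to −0.80 against TCell4 and from −0.51 to −1.14, past 2-fold, against TCell3. Kit is on the list by which those members were dropped, and the compared cells were not trimmed. Of the 505 higher genes, 437 were kept with TMM factors and 491 with the mean of per-cell CPM.

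Without thinning, at 2000 and at 10000 UMIs, Rag1 was in 94.6%, 47.5% and 86.0% of members, Ptcra in 94.8%, 59.6% and 90.3%, and Il2ra in 94.2%, 57.7% and 89.9%. Rag1 with Ptcra was in 92.0% unthinned and 82.1% at 10000 UMIs, and Il2ra with Ptcra in 89.6% and 81.7%. CD90.2 was above a CLR of 1.5 in 95.5% of members. CD48 was in 97.0% with CLR across each cell's antibodies, 36.4% with CLR across both E16.5 libraries, and 94.99% and 9.65% at levels of 0.5 and 1.5, and CD27 in 60.9%, 57.5%, 86.5% and 8.35%. The other 57 recomputed summary values stayed within their limits. Alternatives for TCell4, TCell3 and the cell cycle parts were chosen after seeing the data.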
